A study of Mus musculus with 14 samples.

Results

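The mitochondrially encoded genes are the 37 genes carried by the mouse mitochondrial chromosome, taken here as every row of the 3 deposited count tables whose Ensembl identifier has a symbol starting with mt-. They make up 37 of the 37310 gene rows and comprise 13 protein genes, 2 rRNA genes and 22 tRNA genes. All 37 were found in each table, and all 37 lie on chromosome M in the annotation, so the name and the rule pick the same genes. RNA was sequenced from pancreatic β-cells, which make and secrete insulin, and from whole islets, the endocrine clusters in which β-cells sit beside other hormone cells, vessels and connective tissue. The 14 libraries form 3 comparisons, each within its own table: wild-type β-cells from adults at postnatal day 45 (n = 3) against neonates at day 6 (n = 3), whole islets of 8-week-old mice labelled TSC1 KO (n = 2) against their controls, labelled RC control (n = 2), and whole islets of 4-week-old mice labelled Db (n = 2) against their controls, labelled BKS control (n = 2). All samples carry the strain label C57BL/6, the BKS ones included, and the labels do not spell out RC, BKS or Db. The knockout is described as one of β-cells, so other islet cells are not stated to carry it, and the sources used here name neither its Cre driver nor the way β-cells were isolated. The labels do not say whether the libraries of a group came from separate animals or from pools, and p-values therefore cover only how far these libraries vary, which may be technical.

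Each mitochondrion keeps a small circular genome that is read by its own RNA polymerase into long transcripts from both strands. The tRNAs lie between most of the other genes and are cut out, which frees the rRNAs of the mitochondrial ribosome and the mRNAs for the core subunits of the respiratory chain and of ATP synthase. All other subunits, and every protein that copies the genome or handles its RNA, are made from nuclear genes. In β-cells, ATP from this chain closes potassium channels and so links blood glucose to insulin release. Tsc1 encodes an inhibitor of mTORC1, a kinase complex that promotes growth and mitochondrial activity.

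The genes sit so closely that a read can belong to more than one of them. In the annotation mt-Atp8 and mt-Atp6 share 43 bases, mt-Nd5 and mt-Nd6, which are read from opposite strands, share 14, mt-Nd4l and mt-Nd4 share 7, and mt-Atp6 and mt-Co3 share 1. The annotated mt-Atp8 sequence is shown because its end, in capitals, is also the start of mt-Atp6 and cannot be assigned to either by sequence.
mt-Atp8: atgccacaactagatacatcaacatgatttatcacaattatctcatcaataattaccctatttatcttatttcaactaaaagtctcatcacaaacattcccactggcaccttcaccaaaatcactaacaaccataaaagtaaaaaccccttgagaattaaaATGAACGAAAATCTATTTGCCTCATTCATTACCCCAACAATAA

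Of the 22 tRNA genes, 8 lie on the minus strand of the annotation, and these include the 5 that reached 100 counts in any library: mt-Tq, mt-Ty, mt-Ts1, mt-Te and mt-Tp, which carry glutamine, tyrosine, serine, glutamate and proline. They are shown because they hold most tRNA counts of the islet libraries and because mt-Te and mt-Tp had the smallest adjusted p-values of all members in TSC1 KO islets. Capitals mark the anticodon. The sources used here do not say whether counting used the strand, so reads from the opposite strand over these genes, and over mt-Nd6, the only protein gene on the minus strand, cannot be told apart from their own.
mt-Tq: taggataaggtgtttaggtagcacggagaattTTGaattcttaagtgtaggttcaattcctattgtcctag
mt-Ty: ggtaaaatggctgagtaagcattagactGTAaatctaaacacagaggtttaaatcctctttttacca
mt-Ts1: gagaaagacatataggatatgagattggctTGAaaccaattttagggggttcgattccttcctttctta
mt-Te: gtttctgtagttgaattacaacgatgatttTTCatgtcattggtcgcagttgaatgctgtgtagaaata
mt-Tp: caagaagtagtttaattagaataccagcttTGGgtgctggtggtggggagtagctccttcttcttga

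Another 5 of the protein genes have a nearly full-length copy among the annotated nuclear transcripts, at 99% identity or more over 95% of their length or more. They are mt-Co2, mt-Atp6, mt-Co3, mt-Nd3 and mt-Nd4l, and partial copies match 31.3% of mt-Co1 and 63.6% of mt-Nd4. Of the copies found, only that of mt-Nd4l has a row in the count tables. Reads that fit both places could have been dropped or, for mt-Nd4l, split, so the levels of these genes are uncertain. Per length, the 8 other protein genes had a median count 2.92 to 3.70 times that of the 5 copied genes in adult and 3.59 to 5.99 times in neonatal β-cells. The 2 libraries of TSC1 KO islets gave 4.96 and 4.12 and those of RC control islets 2.52 and 3.05, and 13.4 in both Db libraries against 8.32 and 9.99 in BKS control islets. It therefore differed between the islet groups without overlap, and its part in the differences described for these genes was not tested.

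Total gene counts ranged from 3507929 to 17688772 per library. The 95% Wilson interval of a mitochondrial share of these counts was at most ± 0.0522 percentage points. These intervals cover counting error only. They also treat each read as independent, since the labels name no molecular identifiers. Insulin transcripts took 0.969 to 1.05% of gene counts in TSC1 KO islets and 24.5 to 27.9% in RC control islets, and 45.5 to 48.3% in Db islets and 61.0 to 70.0% in BKS control islets, so shares are also given without them. Tsc1 itself had 31 and 34.5 CPM in TSC1 KO islets, against 25.1 and 54.1 CPM in RC control islets (log2 fold change -0.28 ± 0.38, edgeR quasi-likelihood adjusted p = 0.638). Its total count over the gene in whole islets neither tests for a deleted exon nor separates β-cells from other cells. CPM are counts scaled to each library's gene total after TMM normalisation, and a gene is called higher or lower where its adjusted p is under 0.05.

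What the mitochondrial genome contributed to a library differed by more than an order of magnitude between the tables. It took 8.27, 6.39 and 4.63% of gene counts in the adult and 4.47, 3.51 and 3.11% in the neonatal β-cell libraries. In TSC1 KO islets it took 39.8 and 46.8%, against 12.4 and 9.05% in RC control islets. In Db islets it took 0.252 and 0.153%, against 0.259 and 0.567% in BKS control islets. The tables were made from different cells and ages and cannot be compared by a test. Any difference in how their libraries were prepared or sequenced cannot be told apart from these.

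The kind of mitochondrial RNA set the β-cell table apart from both islet tables. Cell type coincides with the table here, so it cannot be told apart from the preparation and sequencing of the libraries. In all 6 β-cell libraries the large rRNA mt-Rnr2 alone held 87.9 to 89.6% of mitochondrial counts, and the 13 protein genes held 8.67 to 9.84%. In the 8 islet libraries the 13 protein genes held 97.35 to 98.97%, and both rRNAs together 0.777 to 2.26%. The count of mt-Rnr2 was 31.4 to 52.1 times that of the small rRNA mt-Rnr1 in β-cells and 1.93 to 3.72 times in islets. The 13 protein genes thus made up only 0.717, 0.589 and 0.456% of gene counts in adult and 0.408, 0.315 and 0.305% in neonatal β-cells. The non-coding nuclear RNA Malat1 also stood apart, with 10840 to 15940 CPM in β-cells and 86.95 to 837.1 CPM in the islet libraries of both tables.

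**Figure D1:**
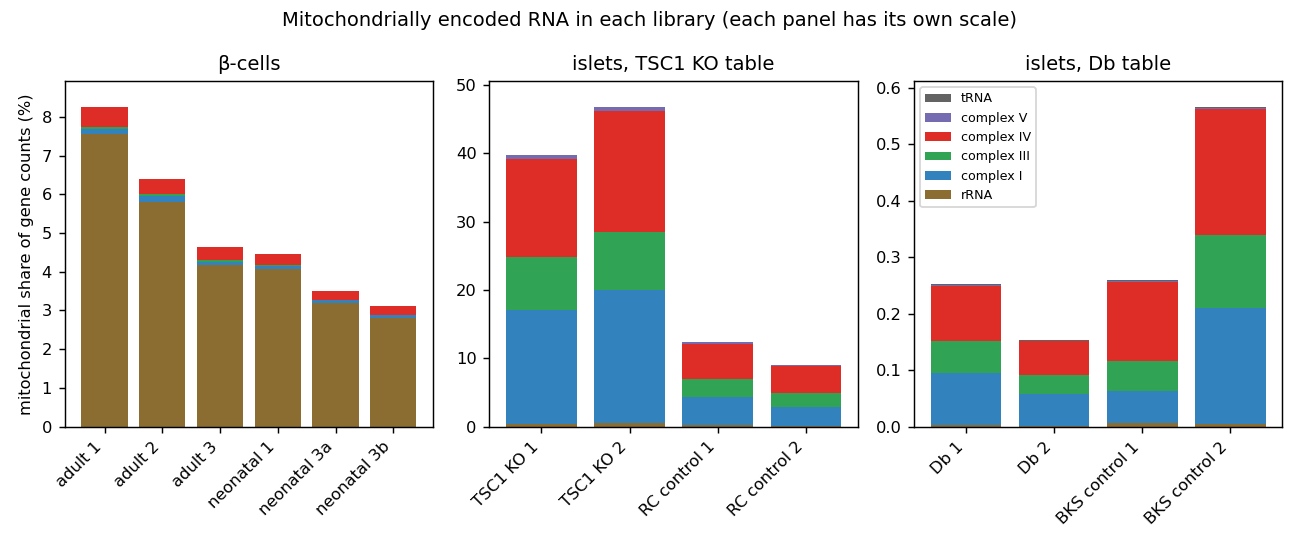
Share of gene counts (%) taken by mitochondrially encoded rRNA, tRNA and the mRNAs of each respiratory complex, 1 stacked bar per library and 1 panel with its own scale per table. rRNA fills most of every β-cell bar and almost none of the islet bars; the TSC1 KO bars reach 39.8 and 46.8%, and the Db and BKS control bars stay under 0.6%.

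In adult β-cells mitochondrial RNA was higher as a whole. All 3 adult libraries held a larger mitochondrial share of gene counts than any neonatal library, with means of 6.43% ± 1.82 in adult and 3.70% ± 0.697 in neonatal cells (SD, n = 3 each), a difference of 2.73 points (two-sided exact permutation test, p = 0.1, the smallest that 3 against 3 allows). Without the insulin genes the difference was 3.09 points with the same p. As a share of all reads, unaligned and unassigned ones included, it was 3.38, 2.08 and 1.14% in adult and 1.93, 1.26 and 1.22% in neonatal cells, and the groups overlapped (exact permutation p = 0.4). Unaligned reads made up 53.6% of adult replicate 3, the most of any library with that count. The summed level of 10 β-cell markers was 55080 to 90900 CPM in adult and 24400 to 33550 CPM in neonatal cells (5 called higher). Most of this sum was Ins1 and Ins2, and the levels of Pdx1, Mafa and Nkx6-1 overlapped between ages. The 7 duct markers summed to 432 to 459 CPM in adult and 601 to 675 CPM in neonatal cells (3 called lower). Of these, Krt7 had 147.7, 171.8 and 167.7 CPM in adult and 346.2, 429.8 and 281.4 CPM in neonatal cells. Cftr went the other way, with 42.3 to 49.3 CPM in adult and 10.0 to 31.5 CPM in neonatal cells, and Epcam overlapped between ages. The part of either list in the mitochondrial result was not tested.

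Among the 13 protein genes, 6 were called higher in adult β-cells and none lower, against 3.38% of all tested genes called higher, 3.6% called lower and 6.98% called in either direction. The median log2 fold change of the 13 was 0.93, against -0.03 over all genes tested, and their range was 0.65 to 1.46. For 9 of the 13 no adult library overlapped a neonatal one, as was so in the same direction for 14% of all genes. mt-Co1, the catalytic subunit of cytochrome c oxidase (complex IV), had 5373, 4050 and 3167 CPM in adult libraries and 2561, 2051 and 1981 CPM in neonatal ones. It rose by 0.93 ± 0.17 on the log2 scale, 1.91-fold (adjusted p = 0.00447). mt-Cytb, the cytochrome b of complex III, had 601, 560.3 and 437 CPM in adult and 322, 203 and 175 CPM in neonatal libraries, and rose by 1.19 ± 0.21 (adjusted p = 0.00329). These were the only 2 of the 13 called under all 14 alternative settings.

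The other called genes belong to complexes IV and I. mt-Co2, which takes electrons from cytochrome c, had 42.1, 48.3 and 25.8 CPM in adult and 15.5, 16.3 and 10.4 CPM in neonatal libraries (log2 fold change 1.46 ± 0.35, adjusted p = 0.0186). mt-Co3, a core subunit of complex IV, rose by 0.75 ± 0.21 (adjusted p = 0.0436). mt-Nd5, a proton-pumping subunit of complex I, had 962, 952 and 531 CPM in adult and 508, 379 and 433.5 CPM in neonatal libraries. Adult replicate 3 lay close to neonatal replicate 1 for this gene, and the rise was 0.89 ± 0.21 (adjusted p = 0.0176). mt-Nd4, another pumping subunit, rose by 1.29 ± 0.34 (adjusted p = 0.0372). Adult replicate 3 was the lowest adult library for each of the 4 genes except mt-Co3.

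The remaining 7 protein genes did not pass. mt-Atp6, the proton channel subunit of ATP synthase, had a log2 fold change of 1.12 ± 0.33 (adjusted p = 0.0528), and mt-Nd1, beside the quinone site of complex I, of 0.98 ± 0.29 (adjusted p = 0.0578). The complex I subunits mt-Nd2 and mt-Nd6 had 0.82 ± 0.31 and 1.17 ± 0.50, and the small ATP synthase subunit mt-Atp8 had 0.92 ± 0.44, with adjusted p of 0.149, 0.193 and 0.247. mt-Nd3 and mt-Nd4l, both small complex I subunits, were too rare to read: they had 2 to 56 and 1 to 118 counts per library, and their log2 fold changes of 0.65 and 0.77 ran from -0.40 to 1.19 and from 0.19 to 1.94 over the alternatives. Both rRNAs moved by a similar size. mt-Rnr2 had 80370, 61010 and 41360 CPM in adult and 37480, 29810 and 25750 CPM in neonatal libraries and was called (0.97 ± 0.23, adjusted p = 0.0339), while mt-Rnr1 was not (1.07 ± 0.30, adjusted p = 0.0766). No tRNA passed the filter on low counts: 19 of 22 had 0 counts in all 6 libraries and the most that any had was 28.

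No shift in the make-up of the set went beyond the spread of the libraries. mRNAs made up 9.24% ± 0.584 of mitochondrial counts in adult and 9.30% ± 0.442 in neonatal cells, a difference of -0.0596 points (exact permutation p = 1). For each of the 13 genes the share within the mRNAs overlapped between ages. mt-Co1 held 67.0% ± 3.15 in adult and 68.0% ± 1.65 in neonatal cells, mt-Nd5 12.9% ± 1.77 and 13.7% ± 1.34, with exact permutation p of 0.6 and 0.5. mt-Cytb held 7.73, 8.76 and 9.45% in adult and 8.32, 6.77 and 6.13% in neonatal cells (exact permutation p = 0.2). With 3 libraries a group these values bound a shift in mt-Co1 loosely: leaving out libraries moved its difference between -2.09 and 0.780 points. Calls depended on single libraries, with 2 protein genes called without adult replicate 1, without adult replicate 2 or without neonatal replicate 3b.

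**Figure D2:**
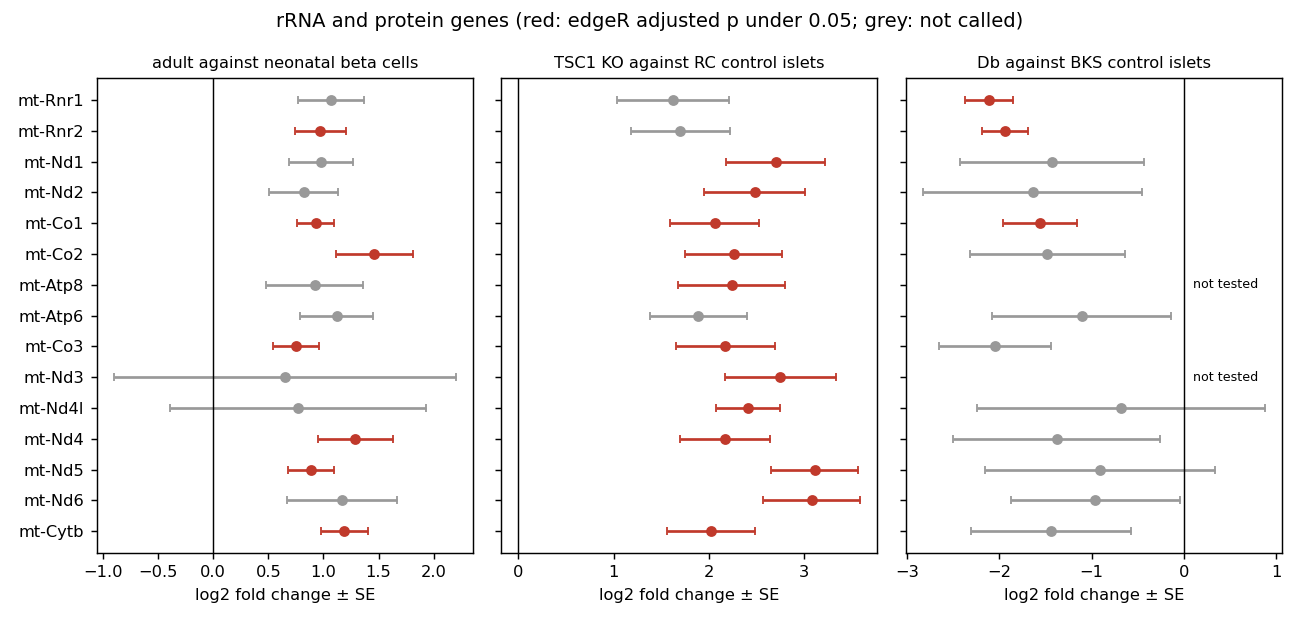
log2 fold change ± SE from edgeR for both rRNA genes and the 13 protein genes, in genome order from top to bottom, 1 panel per comparison with its own axis; red marks adjusted p under 0.05 and grey marks genes not called. All points lie above 0 in the adult and TSC1 KO panels and below 0 in the Db panel, where mt-Atp8 and mt-Nd3 were not tested and most error bars are wide.

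TSC1 KO islets had the largest mitochondrial shares of the series. Their libraries held 43.3% ± 4.99 of gene counts in mitochondrial RNA, against 10.7% ± 2.34 in RC control islets (SD, n = 2 each), a difference of 32.6 points that an exact permutation test cannot place below p = 0.333 with 2 against 2. Without Ins1 and Ins2 the shares were 40.2 and 47.3% in TSC1 KO and 16.4 and 12.5% in RC control islets, so the ratio of means was 4.05 with and 3.03 without insulin. With plain library sizes in place of TMM the median log2 fold change over all genes was -0.25 and that of the 13 protein genes 1.98, and with all members also left out of the library size these were 0.40 and 2.65.

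Of the 13 protein genes, 12 were called higher in TSC1 KO islets and none lower, against 8.63% of all tested genes called higher and 18.6% called in either direction. Their median log2 fold change was 2.26, against 0.00 over all genes. All 13 had both TSC1 KO libraries above both RC control libraries, which 33.6% of all genes did in that direction and 34% in the other. Members of complex I had the largest changes. mt-Nd5 had 63660 and 72560 CPM in TSC1 KO islets and 8684 and 7114 CPM in RC control islets, and rose 8.62-fold (log2 fold change 3.11 ± 0.46, adjusted p = 0.0146). mt-Nd6, which completes the membrane arm of complex I, had 15090 and 17900 CPM in TSC1 KO and 2560 and 1348 CPM in RC control islets, and rose 8.44-fold (3.08 ± 0.51, adjusted p = 0.0181).

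The other complex I subunits rose by 2.17 to 2.75 on the log2 scale. mt-Nd1 had 33720 and 52910 CPM in TSC1 KO islets and 8320 and 4990 CPM in RC control islets (2.70 ± 0.52, adjusted p = 0.024). mt-Nd3, a rare transcript with a nuclear copy, had 512 and 1050 CPM in TSC1 KO and 163 and 68.7 CPM in RC control islets (2.75 ± 0.58, adjusted p = 0.0312). mt-Nd2 rose by 2.48 ± 0.53 (adjusted p = 0.0297), mt-Nd4l by 2.41 ± 0.34 (adjusted p = 0.0132) and mt-Nd4 by 2.17 ± 0.47 (adjusted p = 0.0309). TSC1 KO replicate 2 was the higher of its pair for every one of the 13 genes, and RC control replicate 1 the higher of its own.

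The genes of complexes III and IV rose 4.05-fold to 4.78-fold. mt-Co1 had 131300 and 180800 CPM in TSC1 KO islets and 41060 and 34010 CPM in RC control islets (2.06 ± 0.47, 4.16-fold, adjusted p = 0.0348). mt-Cytb had 79530 and 99850 CPM in TSC1 KO and 25540 and 18710 CPM in RC control islets (2.02 ± 0.46, 4.05-fold, adjusted p = 0.0352). mt-Co2 and mt-Co3 rose by 2.26 ± 0.51 and 2.17 ± 0.52 (adjusted p = 0.0347 and 0.0392). Of the ATP synthase subunits, mt-Atp8 rose by 2.24 ± 0.56 (adjusted p = 0.0459) and mt-Atp6 missed the threshold at 1.89 ± 0.51 (adjusted p = 0.0506). The rRNAs did not pass: mt-Rnr1 had 781 and 1973 CPM in TSC1 KO and 594 and 299 CPM in RC control islets (1.62 ± 0.59, adjusted p = 0.105), and mt-Rnr2 had 1.70 ± 0.52 (adjusted p = 0.0704).

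tRNA genes gave the largest single change. mt-Te had 1051 and 847 counts in the TSC1 KO libraries and 123 and 100 counts in the deeper RC control libraries, and rose 15.5-fold (3.95 ± 0.28, adjusted p = 0.0105). mt-Tp had 1324 and 842 counts in TSC1 KO and 258 and 323 in RC control islets, and rose 6.68-fold (2.74 ± 0.25, adjusted p = 0.0105). mt-Ty and mt-Ts1 rose by 2.03 ± 0.26 and 1.80 ± 0.42 (adjusted p = 0.0118 and 0.0364), and mt-Tq, with 12 to 130 counts, did not pass (3.00 ± 0.81, adjusted p = 0.064). In all, 9 of 22 tRNA genes were tested and 6 called higher, and 13 were not tested. Of all tested genes, 8.63% were called higher and 18.6% in either direction. The 8 minus-strand tRNA genes together had 4118 and 3601 counts in TSC1 KO and 1549 and 1116 in RC control islets, and the 14 plus-strand ones 81 and 57 in TSC1 KO and 44 and 17 in RC control islets. Genes of the minus strand, mt-Nd6 included, made up 3.98 and 3.52% of protein and tRNA gene counts in TSC1 KO islets and 2.50 and 1.85% in RC control islets.

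The proportions within the mRNAs differed too, and these do not depend on how libraries are scaled. A larger share was taken by 3 genes and a smaller by 4 in both TSC1 KO libraries than in either RC control library, and the shares of 6 overlapped. By CPM, 33.6% of all genes were higher without overlap and 34% lower. CPM and shares within the mRNAs are unlike measures, so these counts of genes have no matching background and are not read as a result. mt-Nd5 held 14.6% ± 1.72 of the 13 genes' counts in TSC1 KO and 8.25% ± 0.674 in RC control islets, mt-Nd6 3.53% ± 0.315 and 1.97% ± 0.451, and mt-Nd1 9.07% ± 0.979 and 6.78% ± 0.938. mt-Co1 held 33.0% ± 0.525 in TSC1 KO and 39.2% ± 3.51 in RC control islets, and mt-Cytb 19.1% ± 0.944 and 22.9% ± 0.0655, with mt-Nd4 and mt-Atp6 the other 2 lower ones. Complex I genes together held 42.2% ± 0.333 in TSC1 KO and 31.7% ± 2.29 in RC control islets. Each of these exact permutation tests gave p = 0.333, the smallest that 2 against 2 allows. Because the groups do not overlap, leaving out a library cannot change the sign of a difference, so that adds no support.

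Other measures differed in the TSC1 KO libraries, where 8.63% of all tested genes were called higher and 10% lower. The summed level of 10 β-cell markers, most of it Ins1 and Ins2, was 12860 to 13360 CPM in TSC1 KO and 235000 to 265500 CPM in RC control islets. Of the 10, 9 were called lower. The 11 stomach mucosa markers summed to 196 to 323 CPM in TSC1 KO and 24.4 to 28.1 CPM in RC control islets, with 4 of 5 tested called higher and Gkn1, Gkn2, Muc5ac, Tff1 and Atp4b at 0 in all 4 libraries. Duct markers summed to 2202 to 2995 CPM in TSC1 KO and 305 to 990 CPM in RC control islets (1 of 7 called higher). Most of the TSC1 KO sum was Spp1, with 1474 and 1971 CPM, against 433.3 and 49.4 CPM in RC control islets. The called gene, Cftr, had 3.26 and 10.0 CPM in TSC1 KO and 0.474 and 0.294 CPM in RC control islets. Krt7 went the other way, with 131.9 and 165.9 CPM in TSC1 KO and 191.5 and 192.4 CPM in RC control islets. Mesenchymal markers summed to 803 to 4305 CPM in TSC1 KO and 279 to 650 CPM in RC control islets (0 of 6 called, all 6 tested by edgeR). Endothelial ones summed to 3330 to 4520 and 2168 to 2455 CPM in the same order (2 of 6 called higher). Malat1 had 204.4 and 86.95 CPM in TSC1 KO and 837.1 and 378.6 CPM in RC control islets (log2 fold change -2.06 ± 0.58, adjusted p = 0.0614). The part of any of these in the mitochondrial result was not tested, and in whole islets fewer cells of a type and less RNA per cell cannot be told apart. Without TSC1 KO replicate 1 or without TSC1 KO replicate 2, edgeR called 0 of all genes, the 13 included (13 and 12 of the 13 had an unadjusted p under 0.05; with all libraries DESeq2 and limma-voom each called 13), and without RC control replicate 2 it called 7 of the 13.

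**Figure D3:**
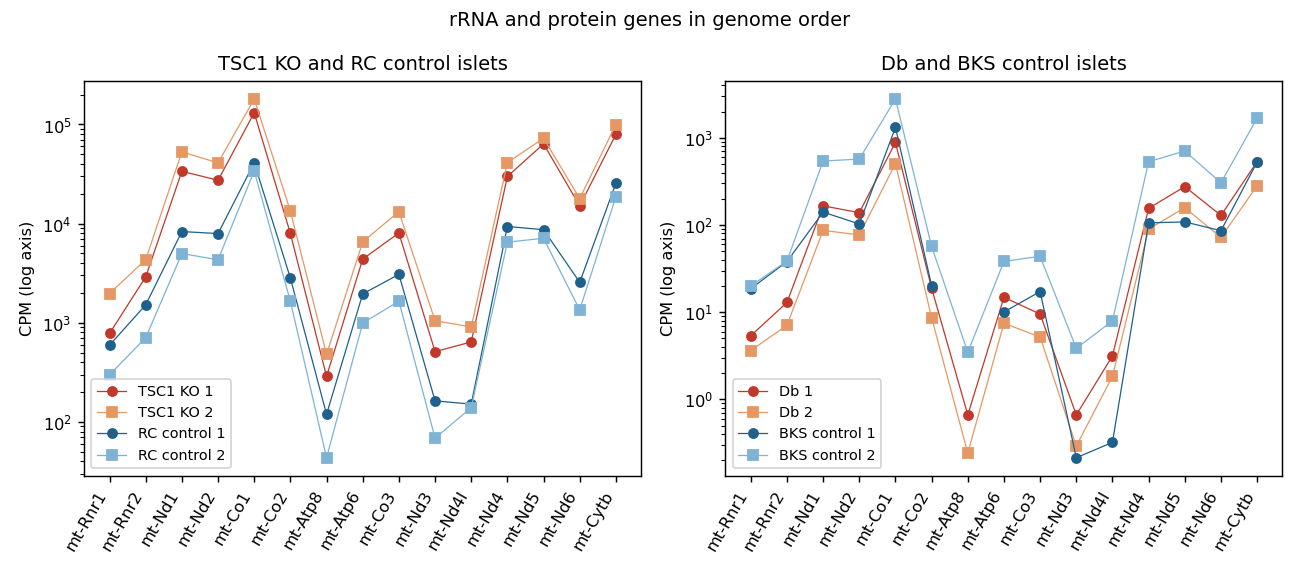
CPM of both rRNA genes and the 13 protein genes in each islet library, on a log axis, in genome order from left to right. Both TSC1 KO lines (left panel) lie above both RC control lines at every gene; in the right panel BKS control replicate 2 lies above the other 3 libraries at every gene, and mt-Atp8, at 0 in BKS control replicate 1, is not drawn for it.

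In Db islets mitochondrial RNA was scarce in both groups, and the controls differed from each other. The share of gene counts was 0.202% ± 0.0703 in Db and 0.413% ± 0.218 in BKS control islets (SD, n = 2 each), a difference of -0.211 points with no overlap (exact permutation p = 0.333, the smallest possible). BKS control replicate 1, at 0.259%, was close to Db replicate 1, at 0.252%. Without insulin genes the shares were 0.488 and 0.280% in Db and 0.665 and 1.89% in BKS control islets, and as shares of all reads the groups overlapped, at 0.110 and 0.0676% in Db and 0.0909 and 0.237% in BKS control islets (exact permutation p = 0.667). Unaligned reads were 2.71 and 2.18% in Db libraries, 18.0% in BKS control replicate 1 and 5.19% in replicate 2.

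By adjusted p, the clearest difference lay in the levels of the rRNAs. Relative to the mRNAs the groups overlapped. The rRNA count per protein gene count was 0.00785 and 0.00827 in Db and 0.0233 and 0.00806 in BKS control islets (exact permutation p = 0.667). mt-Rnr1 had 5.36 and 3.64 CPM in Db islets and 18.6 and 20.02 CPM in BKS control islets, and fell by 2.11 ± 0.26 on the log2 scale, to 4.30-fold lower (adjusted p = 2.32e-07). mt-Rnr2 had 12.9 and 7.08 CPM in Db and 38.0 and 38.6 CPM in BKS control islets, and fell by 1.94 ± 0.25 (adjusted p = 7.24e-07). For both genes the 2 controls were close and both Db libraries lower, and both were called lower under all 14 alternatives. The size was less firm: after removal of the GC trend the log2 fold changes were -1.03 for mt-Rnr1 and -0.86 for mt-Rnr2. They rest on few reads, 75 to 97 and 146 to 234 counts per Db library and 156 to 174 and 301 to 355 per BKS control library.

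Among mRNAs only mt-Co1 was called lower, 1 of the 11 protein genes tested, while 23.9% of all tested genes were called lower and 48.2% in either direction, so the count of members says no more than the background does. mt-Co1 had 885.1 and 506.6 CPM in Db and 1316 and 2791 CPM in BKS control islets, and fell by 1.56 ± 0.40 (adjusted p = 0.0136). mt-Co2 and mt-Co3 also had both Db libraries below both controls, which 37.5% of all genes did (37.2% the other way), but were not called (-1.48 ± 0.84 and -2.05 ± 0.61, adjusted p = 0.283 and 0.0591). The alternatives called mt-Co3 lower in 13 of 14 cases (-2.55 to -1.06) and mt-Co1 in 12 of 14, and removal of the GC trend and DESeq2 each called mt-Co3 and not mt-Co1 (adjusted p = 0.0511 and 0.0645 for mt-Co1). The other 8 tested genes overlapped between groups. mt-Nd1 had 166 and 86.8 CPM in Db and 141 and 541 CPM in BKS control islets (-1.43 ± 1.00, adjusted p = 0.364), and mt-Cytb 533.4 and 282 CPM in Db and 528 and 1682 CPM in BKS control islets (-1.44 ± 0.87, adjusted p = 0.302). In each, BKS control replicate 1 sat among the Db libraries and replicate 2 above all 3.

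The remaining protein genes were also highest in BKS control replicate 2, with replicate 1 among the Db libraries or, for mt-Nd5, mt-Nd4l, mt-Atp8 and mt-Nd3, below both. mt-Nd5 had 276 and 158 CPM in Db and 109 and 706 CPM in BKS control islets (-0.91 ± 1.25, adjusted p = 0.626). mt-Nd2, mt-Nd4, mt-Nd4l and mt-Nd6 had log2 fold changes of -1.64 ± 1.19, -1.38 ± 1.12, -0.68 ± 1.56 and -0.96 ± 0.92, and mt-Atp6 of -1.11 ± 0.97, all with adjusted p between 0.383 and 0.767. mt-Atp8 and mt-Nd3, at 0 to 27 and 2 to 30 counts, did not pass the filter. The median over the 11 was -1.43, against -0.03 over all genes, but it was 0.17 without BKS control replicate 2, when edgeR called 2 of 13 higher and 2 lower, and -2.03 without BKS control replicate 1, when it called all 13 lower. No tRNA gene had 100 counts in this table. Of the 4 tested, mt-Ts1 (-2.31 ± 0.35, adjusted p = 7.55e-06), mt-Tp (-1.84 ± 0.51, adjusted p = 0.00635) and mt-Te (-1.51 ± 0.59, adjusted p = 0.0405) were called lower and are named after their values were seen, mt-Te with overlapping groups. They had at most 80, 35 and 27 counts. Of all tested genes, 23.9% were called lower and 48.2% in either direction.

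**Figure D4:**
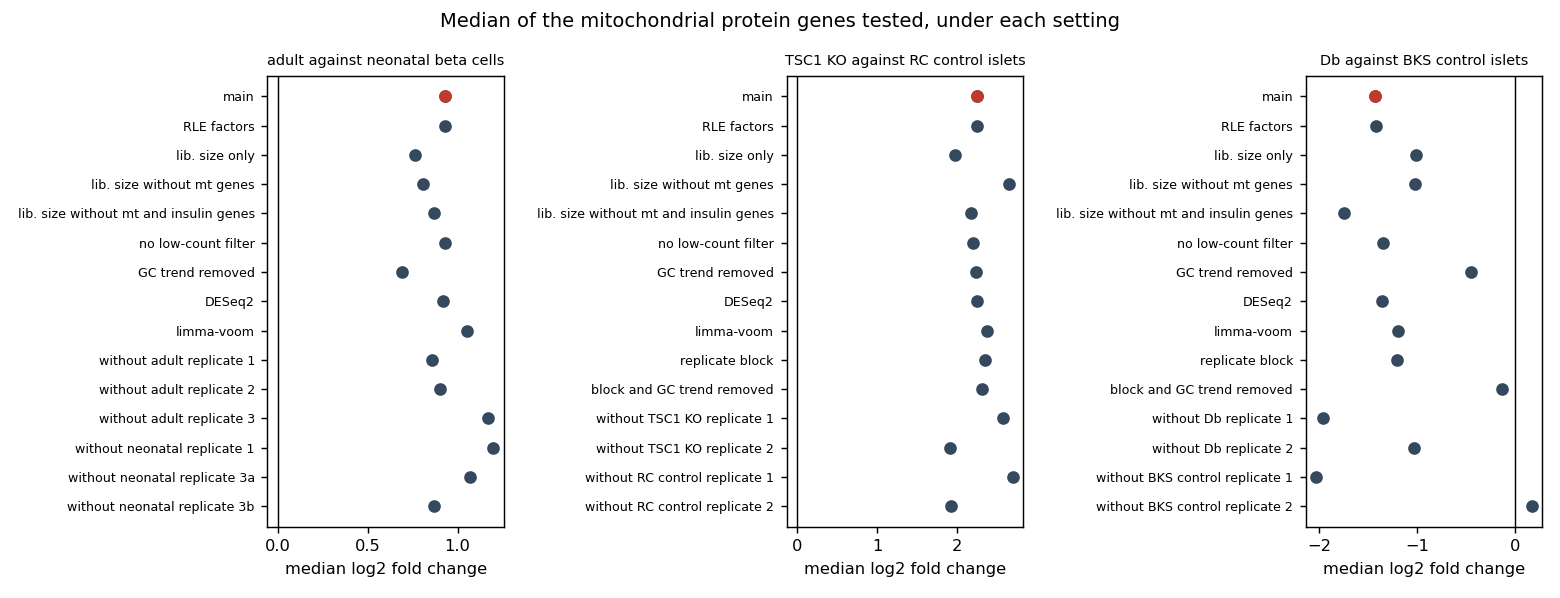
Median log2 fold change of the protein genes tested in each comparison (horizontal axis), 1 row per setting, with the fit reported in the text in red. The adult medians stay between 0.69 and 1.20 and the TSC1 KO medians between 1.92 and 2.70; the Db medians run from -2.03 to 0.17 and cross 0 without BKS control replicate 2.

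Within the mRNAs, 4 genes took a larger share in both Db libraries than in either BKS control library, 1 a smaller share, and 8 overlapped. By CPM, 37.2% of all genes were higher without overlap and 37.5% lower. As CPM and shares within the mRNAs are unlike measures, these counts of genes have no matching background and are not read as a result. mt-Nd5 held 12.02% ± 0.256 in Db and 7.08% ± 3.71 in BKS control islets, mt-Nd6 5.54% ± 0.0266 and 3.86% ± 0.462, mt-Atp6 0.606% ± 0.0423 and 0.469% ± 0.0792, and mt-Nd4l 0.139% ± 0.00488 and 0.0612% ± 0.0679. mt-Co3 held 0.404% ± 0.00554 in Db and 0.654% ± 0.0755 in BKS control islets. All have an exact permutation p of 0.333, and without overlap leaving out a library cannot change the sign of a difference. The 2 Db libraries were nearly alike in these shares, whereas mt-Co1 held 54.0% of the mRNA counts in BKS control replicate 1 and 38.3% in replicate 2, against 38.0 and 39.1% in Db islets. Minus-strand genes made up 5.78 and 5.75% of protein and tRNA gene counts in Db and 3.92 and 4.47% in BKS control islets.

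Other measures differed in the Db libraries as well, where 24.3% of all tested genes were called higher and 23.9% lower. β-cell markers, most of the sum Ins1 and Ins2, came to 427700 to 494600 CPM in Db and 599900 to 920500 CPM in BKS control islets. Of the 10, 7 were called lower and 1 higher. Acinar markers summed to 138 to 301 CPM in Db and 23.2 to 27.3 CPM in BKS control islets, with 7 of 9 tested called higher, 1 lower and Amy2a1 at 0 in all 4 libraries. Mesenchymal markers summed to 496 to 526 CPM in Db and 171 to 273 CPM in BKS control islets (5 of 6 called higher), and endothelial ones to 530.4 to 539 CPM in Db and 770.4 to 816 CPM in BKS control islets (4 of 6 called lower, 1 higher). Duct markers summed to 797 to 843 CPM in Db and 355 to 366 CPM in BKS control islets (1 of 6 tested called higher, 2 lower). Most of this sum was Krt7, with 680.9 and 638.4 CPM in Db and 200.2 and 188.2 CPM in BKS control islets. Other islet endocrine markers summed to 7599 to 9941 and 3858 to 7572 CPM (1 of 6 higher, 1 lower), and erythroid ones to 18.2 to 29.9 and 4.75 to 8.78 CPM (2 of 3 higher). The duct and endocrine call counts say no more than the background does. Malat1 had 137 and 109 CPM in Db and 426 and 424 CPM in BKS control islets (log2 fold change -1.79 ± 0.21, adjusted p = 1.31e-07). Their part in the mitochondrial values was not tested.

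mt-Nd5 and mt-Nd6, neighbours on the genome that are read from opposite strands, thus took larger shares of the mRNAs in TSC1 KO islets than in RC control islets and in Db islets than in BKS control islets. These are separate tables with separate controls, and whether their shifts differ was not tested. The TSC1 KO shifts were 6.36 points for mt-Nd5 and 1.55 points for mt-Nd6, and the Db shifts were 4.94 and 1.68 points. In β-cells the same shares differed by -0.738 and 0.0315 points between adult and neonatal cells, with overlap.

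**Figure D5:**
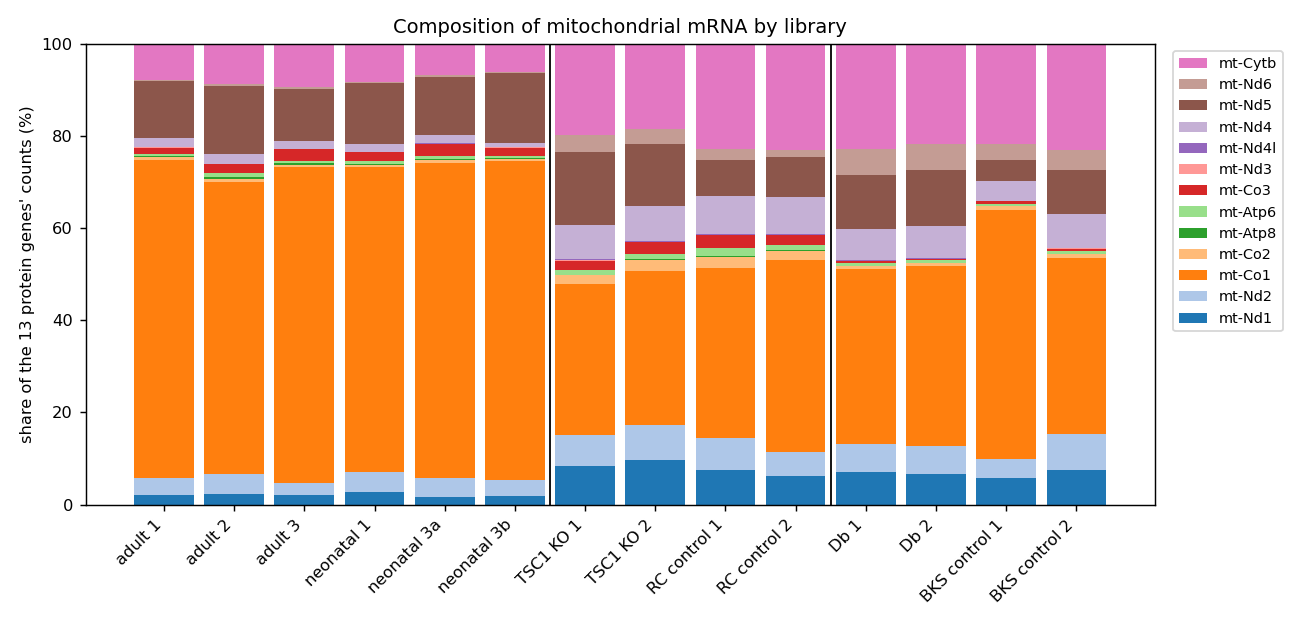
Share of each of the 13 protein genes in their summed counts (%), 1 stacked bar per library, stacked in genome order from mt-Nd1 at the bottom to mt-Cytb at the top; vertical lines separate the 3 tables. mt-Co1 fills about 63.3 to 69.4% of β-cell bars and 32.6 to 54.0% of islet bars, and mt-Nd5 is larger in the TSC1 KO and Db bars than in those of their controls.

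Per length, the order of the protein genes was stable at its top. mt-Co1 had 2716 ± 719 CPM per kilobase in adult and 1422 ± 205 in neonatal β-cells, above every other protein gene without overlap. In islets mt-Co1 was again highest and mt-Cytb next, at 101000 ± 22700 and 78400 ± 12600 CPM per kilobase in TSC1 KO, 24300 ± 3230 and 19340 ± 4220 in RC control, 450.4 ± 173 and 356.4 ± 155 in Db, and 1329 ± 675 and 966.1 ± 714 in BKS control islets, and in each group both overlapped. mt-Nd6 ranked 13 of the 15 rRNA and protein genes in both β-cell groups, 6 in TSC1 KO, 7 in RC control and 3 in Db and BKS control islets, although its range overlapped that of the next gene in each. mt-Nd3 was last of the 15 in all groups but TSC1 KO islets, where it ranked 13, and its range overlapped that of the gene ranked above it in each. Like mt-Co2 it has a nearly full-length nuclear copy, so this rank and the ratio given next are uncertain. The ratio of mt-Co1 to its complex partner mt-Co2, per length, was 37.2 to 56.5 in adult and 55.6 to 84.3 in neonatal β-cells, 5.98 to 7.31 in TSC1 KO and 6.44 to 9.15 in RC control islets, and 20.8 to 26.0 in Db and 21.8 to 28.8 in BKS control islets.

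The nuclear genes for the other subunits of the same complexes were counted in the same way. Of 71 nuclear subunits of complexes I, III, IV and V, 5 were called higher and none lower in adult β-cells, where 3.38% of all genes were called higher. They included Atp5e, an ATP synthase subunit (1.90 ± 0.47, adjusted p = 0.022), and Uqcrh and Uqcrq of complex III (1.40 ± 0.32 and 1.32 ± 0.24, adjusted p = 0.0153 and 0.00342). In TSC1 KO islets none of 69 tested was higher and 10 were lower, among 10% of all genes called lower. Atp5e fell by 1.15 ± 0.25 (adjusted p = 0.0317), and Uqcrq by 1.03 ± 0.25 (adjusted p = 0.0386). The median of this list was -0.39, and with mitochondrial genes left out of the library size it was 0.01, with 1 called higher and 2 lower, so the direction of this list rests on the scaling. In Db islets 28 of 69 were higher and 17 lower, among 24.3 and 23.9% of all genes, and 14 higher and 24 lower with mitochondrial and insulin genes left out of the library size. Ndufa1 of complex I rose by 2.44 ± 0.23 (adjusted p = 1.43e-09), and Cox7a2 of complex IV fell by 1.31 ± 0.23 (adjusted p = 4.22e-05).

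Genes that transcribe or handle mitochondrial RNA were tested next, 29 in each of the first 2 comparisons, in which 6.98 and 18.6% of all genes were called. In adult β-cells 1 was lower (Tbrg4, -1.19 ± 0.35, adjusted p = 0.047), and in TSC1 KO islets Mterf4 was higher (0.82 ± 0.21, adjusted p = 0.0474) and Fastk lower (-0.87 ± 0.20, adjusted p = 0.0354). After removal of the GC trend edgeR called none of the 29 in either comparison. In TSC1 KO islets Polrmt, the mitochondrial RNA polymerase, had 20.1 ± 2.88 CPM, against 26.0 ± 3.97 CPM in RC control islets, with a log2 fold change of -0.37 ± 0.24 (adjusted p = 0.311). Tfam, which packages the genome and starts its transcription, had -0.07 ± 0.25, the elongation factor Tefm -0.01 ± 0.44, and Lrpprc and Slirp, which stabilise the mRNAs, -0.31 ± 0.22 and -0.35 ± 0.22, with adjusted p between 0.306 and 0.987. In adult β-cells these 5 had log2 fold changes of -0.27 ± 0.26, 0.22 ± 0.27, -0.40 ± 0.53, 0.26 ± 0.19 and 0.89 ± 0.74 in the same order, with adjusted p between 0.51 and 0.754. In Db islets 4 of 27 were higher and 6 lower, among 24.3 and 23.9% of all genes, Polrmt rising by 0.72 ± 0.22 (adjusted p = 0.00757) and Lrpprc falling by 1.52 ± 0.25 (adjusted p = 1.21e-05), while Tfam, Tefm and Slirp had -0.28 ± 0.26, -0.28 ± 0.46 and -0.60 ± 0.26 (adjusted p = 0.373, 0.643 and 0.0557). The Db counts rest on the scaling and on Db replicate 2: none was higher and 12 were lower with mitochondrial and insulin genes left out of the library size, 5 were higher and 3 lower with library size only, 2 and 2 after removal of the GC trend, and none and 2 without Db replicate 2, so the higher call of Polrmt did not hold in the first and last of these. Of 12 genes that copy or maintain the mitochondrial genome, none of 11 tested was called in adult β-cells by edgeR, 1 was lower in TSC1 KO islets (Ssbp1, the single-stranded DNA binding protein, -1.28 ± 0.25, adjusted p = 0.0249), and 2 were higher and 7 lower in Db islets.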

How the data were processed

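The authors deposited raw counts (whole numbers, not normalized) of each gene in 3 tables of 37310 Ensembl identifiers. Per the labels' protocols, libraries were made from total RNA with the SMARTer Stranded kit; HTSeq 0.7.1, GSNAP, cutadapt 1.13, DESeq2 1.16.0 and, as builds, mm9 and NCBIM37 appear without a stated role, per the submitters' processing notes. Symbols, lengths, GC content and sequences come from GENCODE M21 (GRCm38), so no coordinates are printed. A pair of β-cell columns is headed neonatal replicate 3 and none replicate 2; the pair is called 3a and 3b. Rows that name no gene (reads outside features, unaligned and the like) were left out of library sizes and tests; gene rows held 24.5 to 43.1% of reads in the β-cell table and 35.1 to 44.3% in the Db table, and the TSC1 KO table has no such rows.

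Each table was fitted alone with edgeR 4.0.16 in R 4.3.3 (filterByExpr with a minimum count of 10 and a minimum total of 15, TMM, robust quasi-likelihood F test, two-sided) and Benjamini-Hochberg adjustment over all genes tested; all adjusted p-values in the text are from it, at a threshold of 0.05. Shares were compared with two-sided exact permutation tests over libraries. The alternatives were other scalings, no filter, DESeq2 1.42.0, limma-voom 3.58.1, removal of a GC trend, a replicate block and leaving out each library. Named were all protein and rRNA genes, tRNA genes with 100 or more counts in a library, and from each nuclear list up to 4 called genes with the largest change plus Polrmt, Tfam, Tefm, Lrpprc and Slirp. Members and lists were chosen with earlier results of these data known. Replicate libraries differed in chi-square tests over genes (10.0 to 81.3 per degree of freedom), so none looked like a library deposited again. Nuclear copies were sought with blastn 2.17.0. The fit was tested on simulated data. Each gene here is a share of its library, so a large change in one class moves the shares of the others.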

Additional observations from a re-analysis of the deposited data

How the results depend on the processing

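Mitochondrial shares kept their direction under every alternative run. Leave-one-out differences were 1.82 to 3.63 points in adult β-cells, 29.1 to 36.1 points in TSC1 KO islets and -0.365 to -0.0566 points in Db islets. Leaving out a library could not turn these differences, because the groups did not overlap. The same holds for the within-mRNA shares without overlap, for which this alternative was chosen after seeing the data. The number of protein genes called moved more. In adult β-cells it was 6, 9 with DESeq2, 9 with no low-count filter, 2 after removal of the GC trend, and 2 to 7 with 1 library left out. In TSC1 KO islets it was 12, 0 to 12 with 1 library left out, and 3 with the replicate block, with or without removal of the GC trend. In Db islets it was 1, 7 with library size only, 7 with library size without mitochondrial genes, 7 with limma-voom, 3 with no low-count filter, 2 with library size without mitochondrial and insulin genes, 2 with the replicate block with or without removal of the GC trend, and 4 to 13 with 1 library left out. The replicate numbers gave deviation correlations of -0.0625 and -0.0591 in the 2 islet tables, so they were not taken as pairs; no block fit was made for β-cells, whose neonatal columns do not carry numbers 1 to 3. The causes were not tested.

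Medians kept their sign except in Db islets, where the value -1.43 became -0.13 with the replicate block and removal of the GC trend and ranged from -2.03 to 0.17 with 1 library left out. Single Db genes also turned. Removal of the GC trend gave 0.10 for mt-Nd4l, 0.13 for mt-Nd5 and 0.25 for mt-Nd6, limma-voom gave 0.62 for mt-Nd4l, and the replicate block with removal of the GC trend gave 0.15 for mt-Atp6, 0.48 for mt-Nd4l, 0.10 for mt-Nd4, 0.61 for mt-Nd5 and 0.45 for mt-Nd6. Leaving out 1 library gave ranges of -2.38 to 0.10 for mt-Nd2, -1.76 to 0.17 for mt-Atp6, -1.65 to 2.95 for mt-Nd4l, -2.09 to 0.24 for mt-Nd4, -1.68 to 1.03 for mt-Nd5 and -1.58 to 0.25 for mt-Nd6, and of -0.40 to 1.19 for mt-Nd3 in adult β-cells. Leaving a group with 1 library assumes that it varies like the others. Scaling moved the median of all genes between -0.25 and 0.40 in TSC1 KO and between -0.35 and 0.29 in Db islets.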
